A study of Mus musculus with 4 samples.

Results

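The 9 genes described here encode proteins of interferon signalling and interferon production. They are the receptor chains Ifnar1, Ifnar2 and Ifngr1, the Janus kinase Jak1, the transcription factor Stat2, and the interferon regulatory factors Irf1, Irf3, Irf7 and Irf9. They were chosen by gene symbol as a pathway group, and all 9 were found among the 24411 genes in each library. All 9 also passed the filter on low values (2 or more libraries with a TPM of 1 or above), which kept 11167 genes for testing. TPM, the deposited unit of transcript abundance, is reads divided by transcript length and scaled to the same sum in every library, so levels of different genes can be compared. Gene positions are from GENCODE M21 on GRCm38, the assembly also called mm10, which the submitters' processing notes name.

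The libraries were made from 4T1, a mouse mammary carcinoma cell line grown in culture. The 2 controls are named control 1 and control 2. The protocols name an RNA source called Ctr and one called vCas9, a line carrying Cas9 from a lentivirus under blasticidin selection, but no title or characteristic ties either name to a control. The other 2 libraries, CD95ko 1 and CD95ko 2, are single-cell clones grown from the Cas9 line after transfection with a pair of guides against exon 9 of the gene for CD95 (Fas), the death receptor bound by Fas ligand. Each group therefore has n = 2 lines or clones and no repeat culture of any of them is named, so the p-values measure only the spread between these libraries, in which line, clone and technical error are mixed.

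Fas was 49.4 TPM in control 1, 39.2 TPM in control 2, 15.8 TPM in CD95ko 1 and 49.5 TPM in the library labelled CD95ko 2. The last of these is not below the controls. A gene-level value does not isolate exon 9, and directions are given for the libraries as labelled. The epithelial markers Epcam, Cdh1, Krt8, Krt18, Krt19 and Cldn4 were above 100 TPM in all 4 libraries and Krt5 was listed at 0 in all 4. The summed level of 9 epithelial markers was 4326 TPM in control 1, 3969 TPM in control 2, 6556 TPM in CD95ko 1 and 10155 TPM in the library labelled CD95ko 2, with Krt18 alone at 5160 TPM in the last. Its part in the levels of the 9 interferon genes was not tested. Cldn7 had another order, at 163, 95.1, 131 and 60.0 TPM in the same libraries, and so did Krt14, at 24.1, 20.7, 6.98 and 158 TPM. Of 10 immune cell markers, 8 were listed at 0 in every library, including Ptprc, Adgre1 and Lyz2, and the exceptions were Cd68 and Csf1r. The summed level of that list was 45.8 TPM in control 1, 42.1 TPM in control 2, 40.1 TPM in CD95ko 1 and 151 TPM in the library labelled CD95ko 2, where Cd68 alone was 146 TPM. Cd68 was lowest in CD95ko 1, at 17.8 TPM, whereas Csf1r was highest there, at 1.22 TPM in control 1, 0 in control 2, 22.2 TPM in CD95ko 1 and 5.07 TPM in the library labelled CD95ko 2. Of 8 fibroblast and endothelial markers, 5 were listed at 0 in every library, Pecam1 and Cdh5 among them, and their summed level was 0.97 to 4.52 TPM. Sequencing depth is unknown from TPM, and counting errors cannot be given.

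Type I interferons, which include interferon beta and the alpha family, bind a receptor made of IFNAR1 and IFNAR2. The kinases JAK1 and TYK2 on its cytoplasmic tails phosphorylate STAT proteins, and STAT2 enters the complex ISGF3 with IRF9. ISGF3 binds interferon-stimulated response elements and switches on the antiviral genes, among them Irf7 and the genes of its own subunits. Interferon gamma binds IFNGR1 and IFNGR2 and acts through JAK1 and JAK2 on gamma-activated sites such as the one known in the promoter of Irf1. IRF3 is made constitutively and is activated by phosphorylation after nucleic acid sensing, whereas IRF7 is strongly inducible. Tumour cells can keep this circuit running at a low tonic level without added interferon.

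None of the 9 genes passed the test between the 2 libraries labelled CD95ko and the 2 controls. Stat2, Irf1, Irf7 and Irf9 were instead more than 2-fold lower in control 2 than in control 1, and both libraries labelled CD95ko lay between the controls for each of them. The receptor chains, Jak1 and Irf3 stayed within 1.63-fold over all 4 libraries. In limma, a linear model fitted over all 11167 genes with a shared estimate of the spread, 0 of the 9 passed a Benjamini-Hochberg adjusted p of 0.05, and 0 of the 9 had an unadjusted p under 0.05. Over all genes tested, 0.0537% passed the adjusted threshold (0.0179% higher and 0.0358% lower in the libraries labelled CD95ko) and 14.9% had an unadjusted p under 0.05. The adjusted p-values of the 9 genes in limma ran from 0.697 for Jak1 to 0.989 for Ifngr1 and Irf7. The median log2 fold change of the 9 genes was 0.02, beside 0.13 over all genes tested. In cultures measured in bulk, fewer cells expressing a gene and less of its RNA per cell cannot be told apart.

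**Figure D1:**
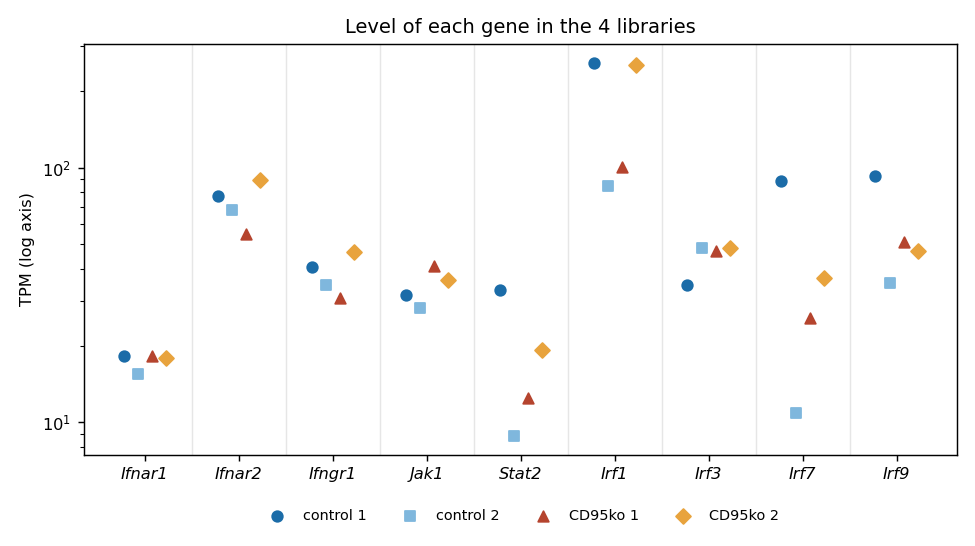
TPM on a log axis for the 9 genes, with 1 symbol per library (blue circles control 1, light blue squares control 2, red triangles CD95ko 1, orange diamonds the library labelled CD95ko 2). Control 1 and control 2 are far apart for Stat2, Irf1, Irf7 and Irf9 and close together for the others, as for Irf7 at 89.0 and 10.8 TPM against Ifnar1 at 18.2 and 15.5 TPM.

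The receptor chains come first in the order of signalling, and Ifnar1 among them varied least of the 9. Ifnar1 (chr16:91485238-91507441, plus strand), the chain to which TYK2 is bound, was 18.2 TPM in control 1, 15.5 TPM in control 2, 18.2 TPM in CD95ko 1 and 17.9 TPM in the library labelled CD95ko 2. These 4 values lie within 1.18-fold of each other, and only 1.1% of the tested genes had a smaller range on the log2(TPM + 1) scale. The log2 fold change between the groups was 0.10 ± 0.44 SE (limma adjusted p = 0.941, n = 2 in each group), with a 95% interval from -0.91 to 1.10. Its sign turned to -0.11 under quantile normalization, which forces the same distribution on every library.

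Ifnar2 (chr16:91372783-91405589, plus strand), the chain that binds interferon with the higher affinity and carries JAK1, was 77.4 TPM in control 1, 68.1 TPM in control 2, 54.8 TPM in CD95ko 1 and 89.5 TPM in the library labelled CD95ko 2. The clones stood on either side of both controls, so the groups overlapped. The controls averaged 72.8 ± 6.53 TPM and the libraries labelled CD95ko 72.2 ± 24.5 TPM (SD, n = 2 each), with a log2 fold change of -0.05 ± 0.37 SE (limma adjusted p = 0.967). Ifnar2 was 3.01 to 5.01 times as abundant as its partner Ifnar1 in every library.

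Ifngr1 (chr10:19591949-19610229, plus strand), the ligand-binding chain of the interferon gamma receptor, was 40.8 TPM in control 1, 34.6 TPM in control 2, 30.9 TPM in CD95ko 1 and 46.8 TPM in the library labelled CD95ko 2. Its order over the libraries was that of Ifnar2, with CD95ko 1 lowest and the library labelled CD95ko 2 highest. Among the 9 genes, Ifnar2 and Ifngr1 had the most similar pattern, with a Euclidean distance of 0.111 between their centred log2(TPM + 1) values over the 4 libraries. The log2 fold change of Ifngr1 between the groups was 0.02 ± 0.40 SE (limma adjusted p = 0.989), and it was -0.13 under quantile normalization.

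Jak1 (chr4:101152367-101265282, minus strand), the kinase shared by the type I and the gamma receptor, was 31.6 TPM in control 1, 28.1 TPM in control 2, 40.9 TPM in CD95ko 1 and 36.1 TPM in the library labelled CD95ko 2. Both libraries labelled CD95ko were above both controls, and Jak1 was the single gene of the 9 whose groups did not overlap. Over all genes tested, the groups did not overlap with the libraries labelled CD95ko above in 29.2% and with them below in 18.3% (47.6% in either direction), so 1 of 9 above and 0 of 9 below are smaller shares than over all genes. Between the groups Jak1 had a log2 fold change of 0.36 ± 0.38 SE and a 95% interval from -0.51 to 1.22 (limma adjusted p = 0.697). The interval covers 0, and the groups did not overlap under quantile normalization either.

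Stat2 (chr10:128270559-128292849, plus strand), the ISGF3 subunit that supplies the transactivation domain, was 32.96 TPM in control 1, 8.82 TPM in control 2, 12.4 TPM in CD95ko 1 and 19.3 TPM in the library labelled CD95ko 2. Control 1 held 3.74 times as much as control 2, and both libraries labelled CD95ko lay between them. Under quantile normalization control 2 was no longer the lowest of the 4 libraries for Stat2. Between the groups Stat2 had a log2 fold change of -0.15 ± 0.63 SE and a 95% interval from -1.58 to 1.29 (limma adjusted p = 0.938). The direction depended on the control, and the mean of the libraries labelled CD95ko was 1.04 below control 1 and 0.75 above control 2 on the log2(TPM + 1) scale.

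The 250 bases before the RefSeq start site of Stat2 (chr10:128270248-128270497, GRCm38.p6, plus strand) are shown because Stat2 is the only one of the 9 genes with a match to an interferon-stimulated response element in its promoter window. The capitals mark the match, which runs from position -222 to -213 relative to the start site.
Stat2: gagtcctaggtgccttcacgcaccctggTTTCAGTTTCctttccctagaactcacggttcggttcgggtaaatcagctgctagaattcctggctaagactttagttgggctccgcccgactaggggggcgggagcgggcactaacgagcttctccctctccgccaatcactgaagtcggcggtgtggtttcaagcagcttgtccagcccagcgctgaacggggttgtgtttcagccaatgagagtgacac
The element was searched on both strands as a pair of GAAA half-sites with any 2 bases between them, in windows from 250 bases before to 50 bases after each RefSeq start site. Of 32851 such windows, 3.44% held it. The shorter core GAAANNGAA, which every full match contains, was in 8.56% of windows and found no further match among the 9 genes. RefSeq windows were found for all 9 genes, 11 windows in all, since Irf1 and Irf9 have a pair each.

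Irf9 (chr14:55603571-55610030, plus strand), the DNA-binding subunit of ISGF3, was 92.5 TPM in control 1, 35.3 TPM in control 2, 50.9 TPM in CD95ko 1 and 47.3 TPM in the library labelled CD95ko 2. The clones were nearly alike, at 49.1 ± 2.55 TPM (SD, n = 2), and both lay in the lower part of the gap between the controls (63.9 ± 40.5 TPM). Its log2 fold change was -0.22 ± 0.47 SE (limma adjusted p = 0.868, n = 2 in each group). Irf9 was more abundant than Stat2 in every library, by 2.81 times in control 1, 4.00 times in control 2, 4.10 times in CD95ko 1 and 2.45 times in the library labelled CD95ko 2. Neither RefSeq window of Irf9 held any of the searched motifs.

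Irf1 (chr11:53770014-53778374, plus strand), an inducible activator of antigen presentation genes, was the most abundant of the 9 in every library. It was 259 TPM in control 1, 84.8 TPM in control 2, 101 TPM in CD95ko 1 and 253 TPM in the library labelled CD95ko 2. The values fall into a high pair and a low pair, and each pair holds 1 control and 1 clone. Irf1 was the only one of the 9 that was more than 2-fold higher in the library labelled CD95ko 2 than in CD95ko 1, which was the case for 9.9% of all genes tested. None of the 9 was more than 2-fold lower there, where 13.4% of all genes were. Between the groups Irf1 had a log2 fold change of 0.11 ± 0.57 SE and a 95% interval from -1.20 to 1.41 (limma adjusted p = 0.953).

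The upstream sequence of Irf1 (chr11:53769764-53770013, GRCm38.p6, plus strand) is shown for its gamma-activated site, in capitals, from position -90 to -82 relative to the first RefSeq start site.
Irf1: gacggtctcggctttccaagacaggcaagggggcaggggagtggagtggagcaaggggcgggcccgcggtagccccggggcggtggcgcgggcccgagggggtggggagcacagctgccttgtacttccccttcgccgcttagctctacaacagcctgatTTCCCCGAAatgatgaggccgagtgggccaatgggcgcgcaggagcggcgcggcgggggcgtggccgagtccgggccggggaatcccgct
The site was searched as TTCNNNGAA, a palindrome that reads the same on both strands, and 8.3% of the 32851 windows held it. Ifnar1 and Ifnar2 each held it once as well, Ifnar2 from position -214 to -206 and Ifnar1 across the start site itself. A match is a description of the letters and not a site of binding.

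Irf7 (chr7:141262706-141266481, minus strand), the inducible factor that amplifies alpha interferon production, varied most. It was 89.0 TPM in control 1, 10.8 TPM in control 2, 25.7 TPM in CD95ko 1 and 36.8 TPM in the library labelled CD95ko 2. The controls were 8.23-fold apart. Only 0.4% of the tested genes were further down in control 2 relative to control 1, and 94.3% had a smaller range over the 4 libraries. Irf7 was the single gene of the 9 for which both libraries labelled CD95ko were more than 2-fold below control 1 (4.25% of all genes tested), and also the single one for which both were more than 2-fold above control 2 (13.3% of all genes tested). These comparisons share the libraries labelled CD95ko. Quantile normalization left 0 of the 9 genes more than 2-fold above control 2 in both clones, and the share of all genes was not counted on that scale. Between the groups the log2 fold change of Irf7 was -0.04 ± 0.81 SE, with a 95% interval from -1.86 to 1.79 (limma adjusted p = 0.989).

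The 250 bases before the RefSeq start site of Irf7 (chr7:141266425-141266674, GRCm38.p6, minus strand, written in the direction of transcription) are shown as the window of the most variable of the 9 genes. It held none of the 3 searched patterns and is therefore in lower case throughout, which says only that these letters are not in this window.
Irf7: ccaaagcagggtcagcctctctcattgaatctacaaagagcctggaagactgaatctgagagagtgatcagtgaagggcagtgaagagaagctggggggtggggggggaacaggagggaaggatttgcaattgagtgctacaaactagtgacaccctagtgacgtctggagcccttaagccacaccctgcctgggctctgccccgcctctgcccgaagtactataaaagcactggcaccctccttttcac

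Irf3 (chr7:44997648-45002848, plus strand), the constitutive partner of Irf7, was 34.6 TPM in control 1, 48.5 TPM in control 2, 47.2 TPM in CD95ko 1 and 48.5 TPM in the library labelled CD95ko 2. It was the only one of the 9 that was higher in control 2 than in control 1 on the TPM scale. The other 3 libraries were close to each other, and control 1 stood below them. Its log2 fold change between the groups was 0.22 ± 0.37 SE (limma adjusted p = 0.827). Irf7 was 2.57 times as abundant as Irf3 in control 1, but only 0.223 times in control 2, 0.544 times in CD95ko 1 and 0.759 times in the library labelled CD95ko 2. The inducible factor was thus the more abundant of the pair in control 1 alone.

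The order of levels reflected these differences. In the controls the means ran from Irf1 (172 ± 123 TPM) through Ifnar2, Irf9, Irf7, Irf3, Ifngr1, Jak1 and Stat2 to Ifnar1 (16.8 ± 1.97 TPM; SD, n = 2). Neighbours in that order had overlapping ranges except Irf1 with Ifnar2 and Ifngr1 with Jak1. In the libraries labelled CD95ko the order was Irf1 (177 ± 108 TPM), Ifnar2, Irf9, Irf3, Ifngr1, Jak1, Irf7, Ifnar1 and Stat2 (15.8 ± 4.85 TPM). There the ranges overlapped for Irf9 with Irf3, Ifngr1 with Jak1, Jak1 with Irf7 and Ifnar1 with Stat2. Irf7 ranked 3 among the 9 in control 1 and 8 in control 2.

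**Figure D2:**
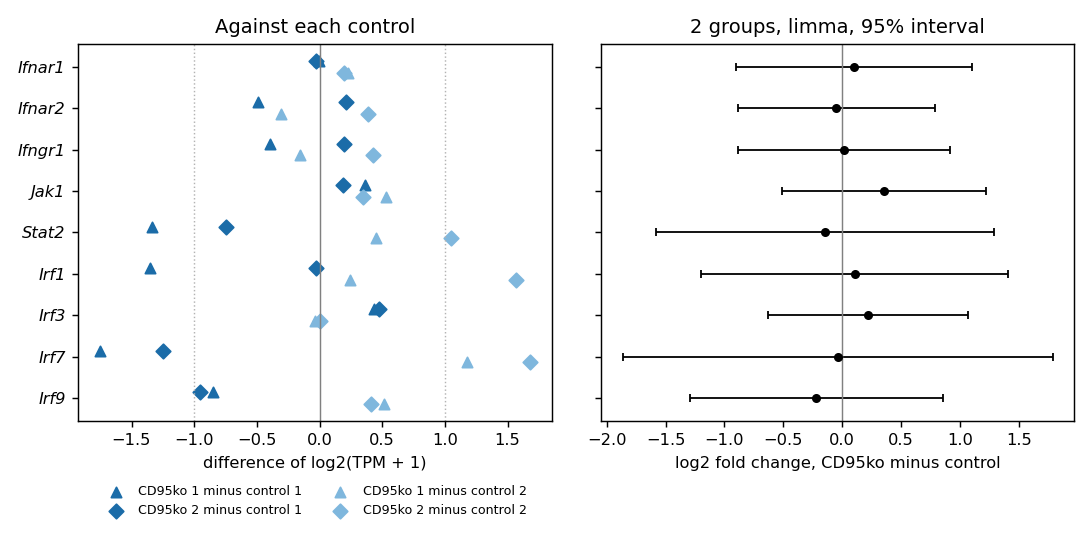
Left, difference of log2(TPM + 1) of CD95ko 1 (triangles) and the library labelled CD95ko 2 (diamonds) from control 1 (blue) and control 2 (light blue), with dotted lines at a 2-fold difference. Right, the log2 fold change between the groups with its 95% interval from limma (n = 2 in each group): all 9 intervals cover 0, and Irf7 has the widest, from -1.86 to 1.79.

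The difference between the controls was then described for the 9 genes, with no test since it sets 1 library against 1. On the log2(TPM + 1) scale control 2 was lower than control 1 by a median of 0.35 over all genes tested, a shift that quantile normalization removes. Irf7 was at -2.93, Stat2 at -1.79, Irf1 at -1.60 and Irf9 at -1.37. Of the 9 genes, 8 were lower in control 2, beside 75.9% of all genes tested, and 4 of 9 against 49.9% under quantile normalization. The 4 named genes were more than 2-fold lower in control 2, where 12.6% of all genes tested were, and 0 of 9 were more than 2-fold higher, where 1.84% were. All 4 kept a difference of over 2-fold under quantile normalization, at -2.50 for Irf7, -1.32 for Stat2, -1.43 for Irf1 and -1.05 for Irf9. Ifnar1, Ifnar2, Ifngr1 and Jak1 were at -0.23 to -0.16 on the TPM scale and at 0.09 to 0.22 under quantile normalization, so their direction depended on the scaling. Irf3 was higher in control 2 under either scaling, by 0.48 and 0.78.

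Both libraries labelled CD95ko lay between the controls for Ifnar1, Stat2, Irf1, Irf7 and Irf9. This held for 5 of 9 genes, against 8.87% of all genes tested. Under quantile normalization it held for 4 of the 9, Irf1, Irf3, Irf7 and Irf9. The share of all genes was not counted on that scale. For Ifnar1 the margin was narrow, at 18.23 TPM in control 1 and 18.2 TPM in CD95ko 1, so control 1 was barely its highest library. Irf7 stood at 28.9% of control 1 in CD95ko 1 and at 41.4% in the library labelled CD95ko 2, while the same libraries were 2.38-fold and 3.41-fold above control 2. Both were below control 1 in 5 of the 9 genes (36.3% of all genes tested) and above it in 2, Jak1 and Irf3 (32.4%). Relative to control 2, both were below in 0 of the 9 (22.1%) and above in 6 (50.6%), with Jak1 added to the 5 genes that lay between the controls. Control 1 was the highest library for those same 5 genes (29.2% of all genes tested) and control 2 the lowest for the 6 (44.2%). Under quantile normalization these counts were 4 (Stat2, Irf1, Irf7 and Irf9) and 3 (Irf1, Irf7 and Irf9). Shares of all genes were again not counted on that scale. More than 2-fold above control 1 in both, or below control 2 in both, held for 0 of the 9, beside 4.7% and 3.02% of all genes tested.

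The rest of the pathway was read from lists of 129 genes in all, of which 101 were tested. In limma, 0 of the 101 passed the adjusted threshold, and 12 had an unadjusted p under 0.05, 5 higher (9.25% of all genes tested were) and 7 lower (5.68% were). Among 21 interferon genes, 20 were listed at 0 in all 4 libraries, including Ifng and the alpha family members Ifna1, Ifna2 and Ifna4. The exception was Ifnb1, interferon beta, listed at 3.67 TPM in control 1 and at 0 in control 2 and both libraries labelled CD95ko. Control 1 was also the library with the highest Stat2, Irf1, Irf7 and Irf9, and the part of Ifnb1 in their levels was not tested.

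The other receptor chains and Janus kinases had 6 genes, all tested, with a median log2 fold change of 1.12, beside 0.13 over all genes tested. The 3 of these with an unadjusted p under 0.05 in limma were all kinases. All were higher in the libraries labelled CD95ko, beside 9.25% of all genes tested, and they are named after their values were seen. Tyk2, the kinase of the IFNAR1 chain, was 10.3 TPM in control 1, 6.7 TPM in control 2, 26.2 TPM in CD95ko 1 and 31.1 TPM in the library labelled CD95ko 2 (log2 fold change 1.67 ± 0.47 SE, limma adjusted p = 0.182). Jak2, which serves the IFNGR2 chain, was 23.4 and 12.7 TPM in the controls and 40.9 and 72.4 TPM in the clones (1.60 ± 0.47 SE, limma adjusted p = 0.191). Jak3, the kinase of the common gamma chain cytokine receptors, was 12.9 TPM in both controls and 31.98 and 44.2 TPM in the clones (limma adjusted p = 0.187). Jak1 had the same direction at a smaller size, and whether its difference is smaller than theirs was not tested. Ifngr2 was 49.2 and 53.9 TPM in the controls and 32.9 and 41.0 TPM in the clones (limma adjusted p = 0.576).

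Of 6 other STATs, 5 were tested and Stat4 was listed at 0 in all 4 libraries. Stat3, Stat5b and Stat6, which serve other cytokine receptors, were highest in the library labelled CD95ko 2, at 57.3, 39.5 and 85.2 TPM, against 14.7 to 25.4, 14.6 to 25.7 and 49.8 to 63.8 TPM in the other 3 libraries. Stat5a was also highest in the library labelled CD95ko 2, at 24.7 TPM, and lowest in CD95ko 1, at 0.89 TPM. Stat5a was more than 2-fold lower in control 2 than in control 1, at 2.17 against 5.65 TPM, as were 12.6% of all genes tested. Its difference was -1.07 on the log2(TPM + 1) scale and -0.61 under quantile normalization, so the 2-fold call depended on the scaling.

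Of 5 other IRFs, Irf4 was listed at 0 throughout and 4 were tested. Irf2, a repressor that competes with IRF1, was 32.2 TPM in control 1 and 15.5 TPM in control 2. It was 23.9 TPM in CD95ko 1 and 32.4 TPM in the library labelled CD95ko 2. The 2 libraries with the higher Irf2 were those with the higher Irf1. On the log2(TPM + 1) scale CD95ko 1 was nearer to control 1 (-0.42) than to control 2 (0.59), so Irf2 had no low pair. Irf5 and Irf2 were more than 2-fold lower in control 2 than in control 1, where 12.6% of all genes tested were. For Irf2 the difference was only 1.01 on the log2(TPM + 1) scale. Under quantile normalization 0 of the 4 were more than 2-fold lower, beside 4.86% of all genes tested, with Irf5 at -0.86 and Irf2 at -0.58. Irf8 was 2.23 to 4.67 TPM.

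Among 17 negative regulators, 2 were higher in the libraries labelled CD95ko at an unadjusted p under 0.05 in limma, beside 9.25% of all genes tested. In the other direction 0 of the 17 were lower, beside 5.68%. The 2 were Ptpn6, the phosphatase SHP-1, and Pias3, an inhibitor of STAT3, with limma adjusted p-values of 0.147 and 0.27. Ptpn6 was 9.89 and 8.44 TPM in the controls against 31.3 and 38.0 TPM in the clones, and Pias3 was 8.92 and 7.9 TPM against 21.1 and 21.5 TPM. The 4 of the 17 more than 2-fold lower in control 2 than in control 1 were Usp18, Socs1, Socs2 and Ptpn2, beside 12.6% of all genes tested. Under quantile normalization 3 of the 17 were, beside 4.86% of all genes tested, and Socs2 was at -0.60. Usp18, which blocks JAK1 at the IFNAR2 chain and is itself induced by ISGF3, was 93.3 and 18.5 TPM in the controls and 27.9 and 29.1 TPM in the clones. Socs1 was 18.1, 3.5 and 8.45 TPM in control 1, control 2 and CD95ko 1 and was listed at 0 in the library labelled CD95ko 2. The most abundant of the list, Ptpn11, Rbck1, Irf2bp2 and Ptpn2, had limma adjusted p-values from 0.579 to 0.863.

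Of the 9 kinases and scaffolds that act on IRF3 and IRF7, 0 were more than 2-fold apart between the controls. Over all genes tested, 12.6% were more than 2-fold lower in control 2 and 1.84% more than 2-fold higher. Tbk1, the main kinase of IRF3, was 33.96 and 22.5 TPM in the controls and 31.9 and 27.3 TPM in the clones. Tank and Tbkbp1, scaffolds of TBK1, were lower in the libraries labelled CD95ko at an unadjusted p under 0.05 in limma. They are 2 of the 9, beside 5.68% of all genes tested. Tank measured 49.96 TPM in control 1, 31.4 TPM in control 2, 21.8 TPM in CD95ko 1 and 5.06 TPM in the library labelled CD95ko 2 (limma adjusted p = 0.252). Tbkbp1 measured 22.5 TPM in control 1, 16.1 TPM in control 2, 0.47 TPM in CD95ko 1 and 6.91 TPM in the library labelled CD95ko 2 (limma adjusted p = 0.209). Irak1 and Azi2, the other abundant genes of this list with Tbk1 and Tank, had adjusted p-values of 0.998 and 0.526.

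Of 41 known ISGF3 targets, 39 were tested, and all 39 were lower in control 2 than in control 1, as were 75.9% of all genes tested. Under quantile normalization all 39 were lower too, beside 49.9% of all genes, and 30 of them by more than 2-fold, beside 4.86%. Without that step the difference was more than 2-fold in 37 of them (12.6% of all genes tested), and the median was -2.28, beside -0.35 over all genes tested. Between the groups their median log2 fold change was -0.51, and 0 passed the adjusted threshold in limma. At an unadjusted p under 0.05 in limma, 3 of the 39 were lower (Isg15, Ifit2 and Ifit3), beside 5.68% of all genes tested. Of the 39, 0 were higher, beside 9.25%. Isg15, the ubiquitin-like modifier, measured 600.5 TPM in control 1, 212 TPM in control 2, 156 TPM in CD95ko 1 and 62.3 TPM in the library labelled CD95ko 2 (limma adjusted p = 0.197). Ifit2 was 34.4 and 7.55 TPM in the controls against 5.94 and 2.48 TPM in the clones, and Ifit3 was 58.2 and 9.97 TPM against 11.1 and 1.7 TPM. These are tetratricopeptide-repeat antiviral proteins. Bst2, Ifi35 and Ifi27, the other most abundant targets, had limma adjusted p-values from 0.731 to 0.988. Relative to control 1 the median of the 39 in the libraries labelled CD95ko was -1.43, and relative to control 2 it was 0.51.

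Of 24 IRF1 and interferon gamma targets, 21 were tested, and all 21 were lower in control 2 than in control 1, 17 of them by more than 2-fold, beside 75.9% and 12.6% of all genes tested. Under quantile normalization 20 were lower, 15 of them by more than 2-fold, beside 49.9% and 4.86% of all genes tested. Tapbp and Psmb8, of the antigen loading and immunoproteasome machinery, had their highest level in the library labelled CD95ko 2, at 355 and 481 TPM. In control 1 they were 204 and 227 TPM, in control 2 84.5 and 52.3 TPM, and in CD95ko 1 164 and 23.8 TPM. For both genes the 2 libraries with the higher level were those with the higher Irf1. On the log2(TPM + 1) scale Tapbp in CD95ko 1 was nearer to control 1 (-0.32) than to control 2 (0.95), so Tapbp had no low pair. B2m and Cxcl10 had an unadjusted p under 0.05 and were lower in the libraries labelled CD95ko (limma adjusted p = 0.236 and 0.187). They are 2 of the 21, beside 5.68% of all genes tested. B2m, the light chain of MHC class I, was 787 and 507 TPM in the controls against 342 and 324 TPM in the clones. Cxcl10, a T cell attractant, measured 193 TPM in control 1, 49.9 TPM in control 2, 23.8 TPM in CD95ko 1 and was listed at 0 in the library labelled CD95ko 2. H2-D1, a class I heavy chain, was 801 and 486 TPM against 436 and 891 TPM, so the groups overlapped.

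**Figure D3:**
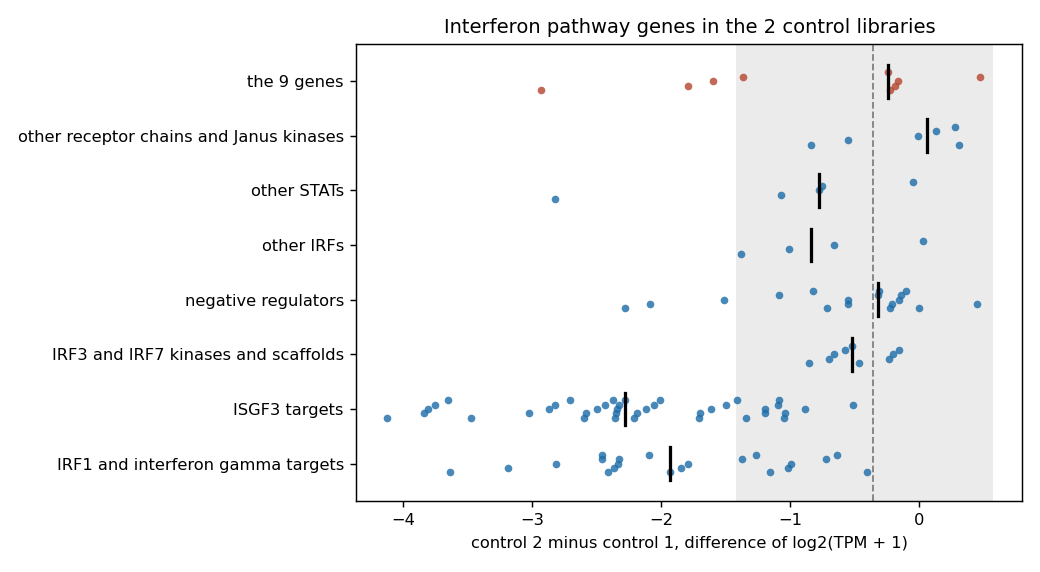
Difference of log2(TPM + 1) between control 2 and control 1 for the 9 genes (red) and the tested genes of each pathway list (blue), with black bars at the medians. The grey band spans the 5th to 95th percentile of all genes tested (-1.41 to 0.57) and the dashed line is their median (-0.35): the ISGF3 targets have a median of -2.28, and 4 of the 9 genes lie at -1.37 or below.

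The genes whose pattern over the 4 libraries was most like that of Irf7 and of Ifnar1, the most and the least variable of the 9, were found by the Euclidean distance of centred log2(TPM + 1) values. The nearest to Irf7 were Oas1a (distance 0.231), Gm7334, Oasl2, Bik and Zfp691 (0.506). Oas1a and Oasl2 belong to the oligoadenylate synthetase family of antiviral enzymes. Oas1a was 120 and 16.1 TPM in the controls and 36.9 and 43.6 TPM in the clones. Bik and Zfp691 were listed at 0 in control 2 and did not exceed 7.17 TPM. The nearest to Ifnar1 were Polr2b (0.027), Ptdss1, Zmynd11, Topbp1 and Kat7 (0.054). Polr2b, a core subunit of RNA polymerase II, was 42.2, 35.1, 41.9 and 41.2 TPM in control 1, control 2, CD95ko 1 and the library labelled CD95ko 2. With 4 libraries, likeness of this kind is a description.

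**Figure D4:**
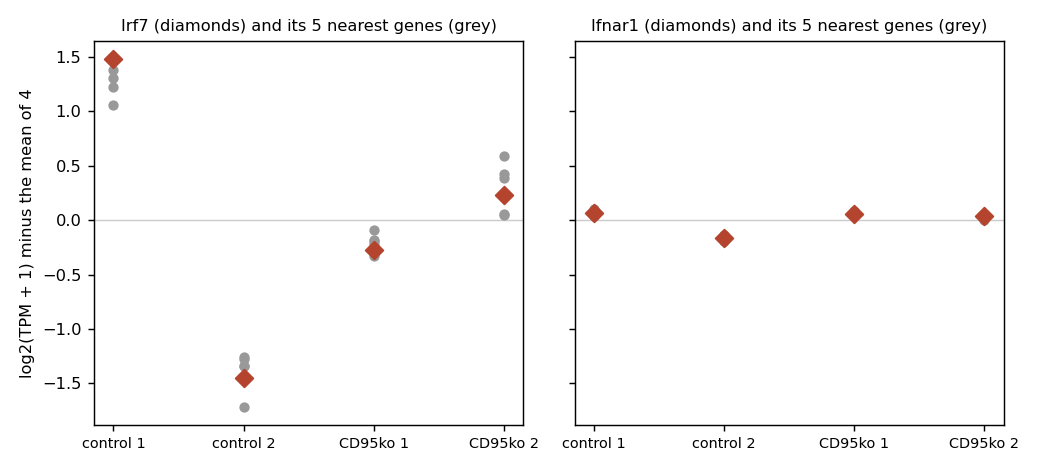
log2(TPM + 1) minus its mean over the 4 libraries for Irf7 (left, diamonds) and Ifnar1 (right, diamonds) with the 5 genes nearest to each (grey circles). Irf7 and its nearest genes, such as Oas1a at 120 and 16.1 TPM in the controls, are high in control 1 and low in control 2, and Ifnar1 and its nearest genes are almost level.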

How the data were processed

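Poly(A)-selected RNA of 4 cultures was sequenced on an Illumina instrument after cDNA synthesis based on SMART-seq2, per the labels' protocols, with no molecular identifiers named. The deposited values are TPM, 1 per gene symbol, per the file headers. The submitters' processing notes name STAR 2.6.0, RSEM 1.3.0 and the build mm10, and the annotation is not given in the sources used here. A gene's TPM depends on all others in its library, so a few abundant genes can shift the rest.

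Groups came from the sample titles. Values were transformed to log2(TPM + 1), which understates changes of weakly expressed genes, and compared with limma 3.58.1 in R 4.3.3 (two-sided moderated test, eBayes with trend on, Benjamini-Hochberg over all 11167 genes). An exact permutation test of 2 against 2 cannot give a two-sided p below 0.333. The procedure was run on simulated data with independent normal noise for each gene. That simulation holds no differences between lines or clones, so it does not test the procedure for this design. The alternatives were a pseudocount of 0.1, no filter, a mean TPM of at least 5, eBayes without trend, robust eBayes, a replicate block, quantile normalization, and leaving out each library.

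The genes and lists were chosen with earlier results of these data known. Named genes were the 9, the 4 most abundant of each list, Fas, and the 5 genes nearest in pattern to the most and the least variable of the 9. Other genes named for an unadjusted p or a difference between the controls were chosen after their values were seen. Gene positions are from GENCODE M21 (GRCm38) and promoter windows from RefSeq (GRCm38.p6). Some genes of the lists are not reported here by name. Strand use in counting is not given in the sources used here.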

Additional observations from a re-analysis of the deposited data

How the results depend on the processing

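In limma, 0 of the 9 genes passed the adjusted threshold under each alternative run, and their smallest adjusted p was 0.664 with 4 libraries and 0.158 with 3. Of 63 values of the 9 genes under settings with 4 libraries, 61 kept their sign, and Ifnar1 (-0.11) and Ifngr1 (-0.13) turned negative under quantile normalization. Leaving out each library in turn gave log2 fold changes from -0.014 to 0.21 for Ifnar1, -0.40 to 0.30 for Ifnar2, -0.28 to 0.31 for Ifngr1, 0.27 to 0.45 for Jak1, -1.04 to 0.75 for Stat2, -0.69 to 0.91 for Irf1, -0.019 to 0.46 for Irf3, -1.50 to 1.43 for Irf7 and -0.90 to 0.46 for Irf9. Jak1 alone kept its sign. The highest value of Stat2, Irf1, Irf7 and Irf9 came without control 1 and their lowest without control 2. The lone library is then assumed to vary like the other group.

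The count of all genes past the threshold, 6 as reported with 1667 at an unadjusted p under 0.05, was 0 under quantile normalization, with eBayes run without trend, with all genes kept and with 0.1 as the pseudocount (1862, 1531, 1636 and 1553 unadjusted). It was 55 with a mean TPM of at least 5 and 52 with robust eBayes. With 1 library left out it ranged from 0 to 1356, the highest without CD95ko 1. The count over the pathway lists ranged from 0 to 23 in the same way, 23 without CD95ko 1 and 5 without the library labelled CD95ko 2. Over all genes the count was also above the 6 as reported in each of these fits, without CD95ko 1 and without the library labelled CD95ko 2. The counts over the lists therefore came with a rise over all genes, and the shares were not compared. The cause of these changes was not tested. Both clones were more than 2-fold above control 2 in 1 of the 9 genes (13.3% of all genes tested). Under quantile normalization this held for 0 of the 9, and the share of all genes was not counted on that scale. Same-numbered libraries are different lines, and their deviations from the group means correlated at -0.081 over genes. Adding a replicate block left 2 genes past the threshold and 0 of the 9.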

Other observations

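Ifnar1 and Ifnar2 lie in a cluster of class II cytokine receptor genes on mouse chromosome 16, all on the plus strand, that spans 192841 bases in GENCODE M21 (GRCm38). Ifnar2 runs from 91372783 to 91405589, Il10rb from 91406164 to 91425834, Ifnar1 from 91485238 to 91507441 and Ifngr2 from 91547072 to 91565623. Il10rb, a chain shared by the interleukin 10 and interferon lambda receptors, measured 33.5 TPM in control 1, 41.8 TPM in control 2, 52.2 TPM in CD95ko 1 and 37.0 TPM in the library labelled CD95ko 2. The library that was highest therefore differed between the neighbours, being the library labelled CD95ko 2 for Ifnar2, CD95ko 1 for Il10rb and control 2 for Ifngr2. Ifnar1 had no clear highest library, at 18.23 TPM in control 1 and 18.2 TPM in CD95ko 1, and control 1 was not its highest under quantile normalization. The limma adjusted p-values of the 4 genes ran from 0.576 to 0.967. An annotated gene that overlaps exons of both, Gm21970, shares 9.5% of the exon bases of Ifnar2 and 14.9% of those of Il10rb on the same strand, and how the authors' counting assigned reads there is not given in the sources used here.

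The other genes of the 9 stand apart in the genome, apart from a shared chromosome for Irf3 and Irf7 (chromosome 7) and for Ifngr1 and Stat2 (chromosome 10). Exons of Irf3 overlap those of Bcl2l12 over 2.6% of its exon bases, those of Irf7 overlap Phrf1 over 1.2%, those of Irf1 overlap Gm17334 over 3.4% and those of Jak1 overlap Raver2 over 0.1%, all on the opposite strand, and those of Irf9 overlap Rnf31 on the same strand over 2.3%. Ifngr1, Stat2 and Ifnar1 have no such overlap.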
